A study of Caenorhabditis elegans with 4 samples.

Results

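The miR-63 family comprises cel-miR-229, cel-miR-64, cel-miR-65 and cel-miR-66, which are encoded together on chromosome III, and cel-miR-63, which is encoded alone on chromosome X. The prefix cel is left out below. Its members were taken by name from the authors' deposited miRNA table, with both arms of each hairpin. All 10 arms of the 5 hairpins were listed, out of 205 mature miRNAs from 132 hairpins. The animals were intact *Caenorhabditis elegans* of the wild-type strain N2 (Bristol), the reference strain of this nematode, taken at the last larval stage (L4). There were 2 control libraries (CTRL) from animals at 20°C and 2 heat shock libraries (HS) from animals shifted to 35°C, with no transgene or mutation in either group. The duration of HS is 4 h in the sample characteristics and 6 h in the treatment protocol and in the methods of the study for small RNA.

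miRNAs are short RNAs cut from both arms of a hairpin precursor. One arm of the resulting duplex, the guide, is usually kept by an Argonaute protein and directs it to mRNAs, while the other, the passenger, is usually discarded. Target choice rests mainly on the seed, a short stretch near the 5′ end of the miRNA, and miRNAs that share a seed are grouped as a family because they can recognise the same sites. The members described here share the miR-63 seed. In the 4 clustered hairpins the seed is on the 5p arm, and in miR-63 it is on the 3p arm. Worms that lack clustered members of this family have been described in earlier genetic work as more sensitive to heat. Sequences of the members were not analysed here.

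The value available for each miRNA was the mean normalized count, which is the authors' mean over all 4 libraries of read counts divided by the size factors of DESeq2. This mean pools CTRL with HS, so it gives the level of a miRNA over the whole experiment and not its level in either group. The deposited fold changes and adjusted p-values are the authors' own comparison of HS with CTRL and were not used. A difference between HS and CTRL is therefore not reported for any member, and no test was made. The values carry no SD, and whether neighbours in an order of levels differ beyond the spread between libraries cannot be said. A read covers a whole mature miRNA, so no correction for length is needed, but ligation and amplification can differ between sequences.

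Over the whole table the levels ran from 51.5 to 1136489 mean normalized counts with a median of 1512. The 5 hairpins of the family together reached 618776, which was 6.26% of the summed level of all listed miRNAs. The cluster on chromosome III accounted for nearly all of this, with 609265 mean normalized counts or 6.16% of the table. miR-63 contributed 1.54% of the family's sum. Of the 10 arms, 7 lay above the median of the table and 3 below it.

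The arms that carry the family seed spanned a 27.6-fold range. The level of miR-64-5p was 214114 mean normalized counts, the highest of the family and rank 12 of 205. miR-65-5p followed at 185342 and rank 13, so that the level of miR-64-5p was 1.16 times that of miR-65-5p. These mature sequences are nearly identical, and how reads that match several miRNAs were assigned is not given in the sources used here, so the division between them is uncertain. Their sum was 399456, or 64.6% of the family's level, and it would also change if such reads were dropped or counted for each match. In the order of levels miR-81-3p, of the miR-58 (bantam) family, stood directly above this pair at 283592. miR-48-5p, a let-7 family miRNA of the developmental timing pathway, stood directly below it at 183674.

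miR-229-5p was at 132073 mean normalized counts and rank 17. The level of miR-64-5p was 1.62 times as high. Its nearest neighbours in the table were miR-70-3p at 160543 and miR-238-3p at 132007. miR-66-5p was the lowest guide of the cluster, at 58210 and rank 25, and the level of miR-64-5p was 3.68 times as high. It stood between miR-54-3p, of the miR-51 family, at 65563 and let-7-5p, the founding member of the let-7 family that drives the change from larval to adult cell fates, at 54562. The 4 guides of the cluster were thus all among the 25 most abundant miRNAs listed.

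miR-63-3p, the arm that carries the seed in the unclustered hairpin, was at 7766 mean normalized counts and rank 61. It stood between miR-230-3p at 8246 and miR-5592-3p at 7141. Every guide of the cluster exceeded it, and so did a passenger arm of the cluster, miR-229-3p, by 2.35-fold.

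**Figure D1:**
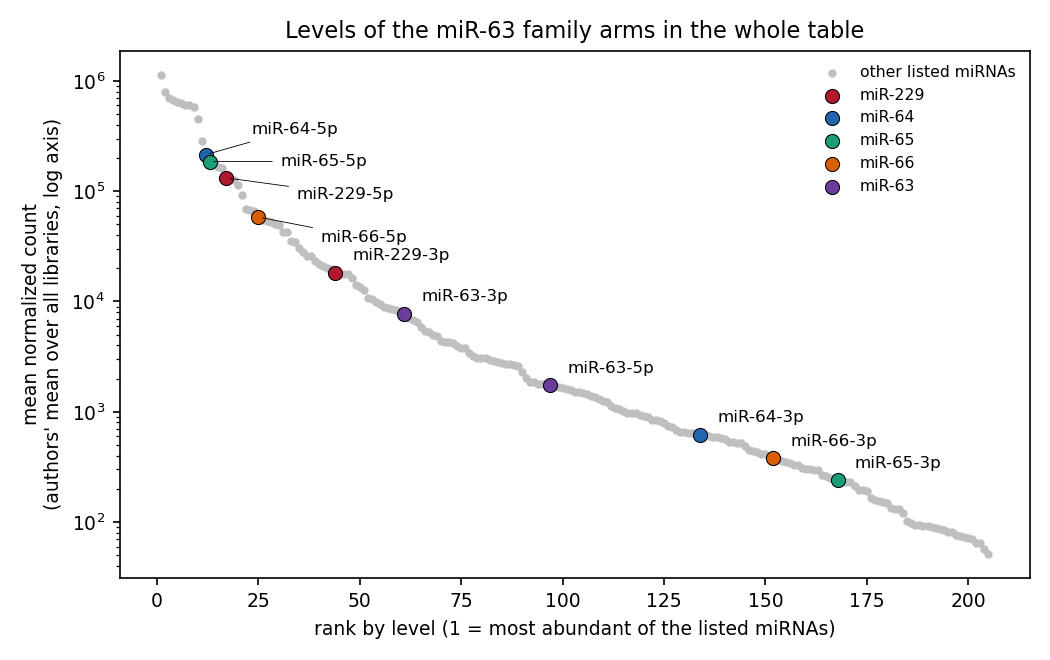
Mean normalized count of each of the 205 listed miRNAs (vertical axis, log scale, the authors' mean over all libraries) against its rank (horizontal axis), with the 10 arms of the family in colour by hairpin. The 5p arms of miR-64, miR-65, miR-229 and miR-66 sit at ranks 12, 13, 17 and 25, miR-63-3p at rank 61, and the 3p arms of miR-64, miR-66 and miR-65 at ranks 134, 152 and 168.

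The passenger arms covered a wider range than the guides of the cluster. miR-229-3p was at 18285 mean normalized counts and rank 44, which is 12.1 times the median of the table. miR-63-5p was at 1745 and rank 97. The other passengers were below the median, with miR-64-3p at 621 (rank 134), miR-66-3p at 380 (rank 152) and miR-65-3p at 239 (rank 168). Within the cluster the level of miR-229-3p was 29.4 times that of miR-64-3p, the next passenger, whereas miR-64-3p was only 1.63 times miR-66-3p and miR-66-3p only 1.59 times miR-65-3p. The 3p arms made up 3.20% of the cluster's summed level, and 93.6% of that came from miR-229-3p. The order of the passengers was not that of the guides, since miR-65 had the second guide and the last passenger.

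To describe how unequal the arms were, the level of the more abundant arm was divided by that of the less abundant arm. Both levels pool CTRL with HS, so the ratio within either group is not known and can differ from the pooled one. Among all 73 hairpins listed with both arms this ratio ran from 1.01 to 4263 with a median of 20.8. The other hairpins of the 132 listed had no ratio, among them miR-57, whose 5p arm was at 665208 mean normalized counts. How unequal their arms were is not known, so the range, median, quartile and ranks hold for the 73 only. Among the 73, the 5p arm had the higher level in 29 and the 3p arm in 44. In the family, the 5p arm was higher in the 4 clustered hairpins and the 3p arm in miR-63, so in all 5 the arm that carries the family seed had the higher level.

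The ratio split the cluster. In miR-65 the 5p arm was 775 times as abundant as the 3p arm, rank 7 of 73. The ratio was 345 in miR-64 (rank 12) and 153 in miR-66 (rank 18). The log2 ratios of these 3 hairpins, in the same order, were 9.60, 8.43 and 7.26. They were above the upper quartile of the 73 hairpins, which was 7.10. miR-229 and miR-63 were below the median log2 ratio of 4.38. The 5p arm of miR-229 was only 7.22 times its 3p arm (log2 ratio 2.85, rank 48), and the 3p arm of miR-63 was 4.45 times its 5p arm (log2 ratio 2.15, rank 54). Put as shares, the less abundant arm held 12.2% of the summed level of miR-229 and 18.3% of that of miR-63, against 0.289% in miR-64, 0.129% in miR-65 and 0.649% in miR-66. The ratios, ranks and shares of miR-64 and miR-65 rest on 5p levels between which the division of reads is uncertain.

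**Figure D2:**
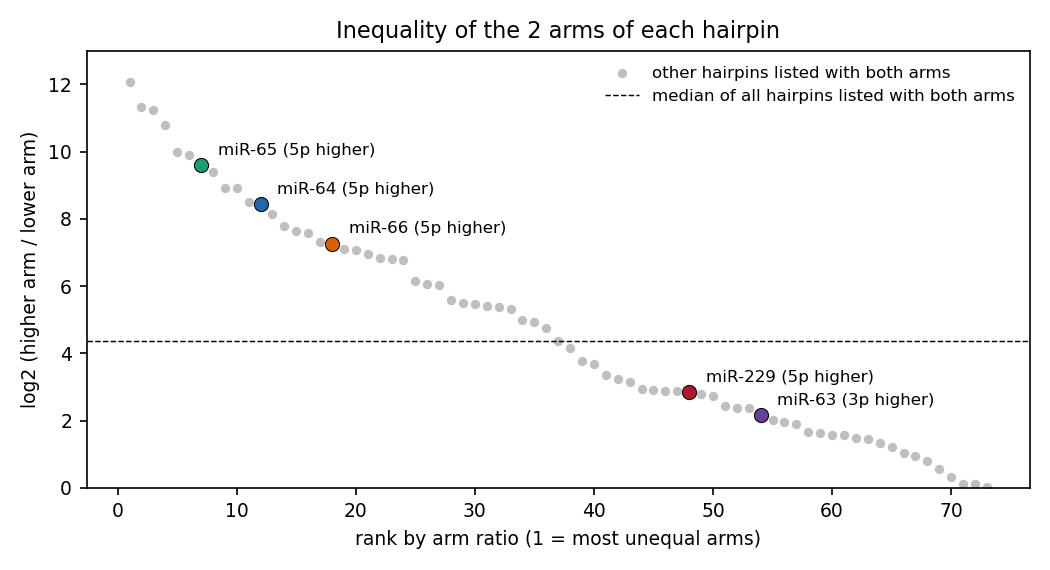
log2 of the ratio of the more to the less abundant arm (vertical axis) for the 73 hairpins listed with both arms, in order of the ratio (horizontal axis), with the 5 hairpins of the family in colour and the median of 4.38 as a dashed line. miR-65, miR-64 and miR-66 lie at 9.60, 8.43 and 7.26, and miR-229 and miR-63 lie below the median at 2.85 and 2.15. The levels are the authors' means over all libraries, with CTRL and HS together.

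The positions of the hairpins were read from the Ensembl annotation of the WBcel235 assembly, in coordinates counted from 1. The 4 clustered hairpins span 755 bp on the plus strand of chromosome III. mir-229 (WBGene00003322) lies at 2172452 to 2172566, mir-64 (WBGene00003292) at 2172848 to 2172957, mir-65 (WBGene00003293) at 2173002 to 2173101 and mir-66 (WBGene00003294) at 2173108 to 2173206. They are unevenly spaced, with 281 bp between mir-229 and mir-64, 44 bp between mir-64 and mir-65, and 6 bp between mir-65 and mir-66.

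The whole cluster lies within intron 11 of gcn-1 (WBGene00021697, 2151945 to 2197908), on the same strand as this gene. gcn-1 is the worm homologue of the yeast Gcn1 protein, which is required there for the Gcn2 kinase to respond to uncharged tRNA. The intron is 6429 bp long, from 2168149 to 2174577, with 4303 bp before the first hairpin and 1371 bp after the last. Of the 129 listed hairpins that could be placed, 30 lay in an intron of a protein-coding gene on the same strand. A further 1 overlapped an exon of such a gene, and 15 lay within a protein-coding gene on the opposite strand. The remaining 83 were not wholly within any protein-coding gene. mir-63 (WBGene00003291, chromosome X, 17598765 to 17598868, minus strand) belongs to the last group. The nearest protein-coding genes are lec-9, which encodes a galectin, at 1618 bp on one side and frpr-7, which by its name encodes an FMRFamide peptide receptor family protein, at 18885 bp on the other.

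The levels did not follow the order of the hairpins along the cluster. Counting both arms, mir-229, the first hairpin, held 24.7% of the cluster's summed level. mir-64 held 35.2%, mir-65 30.5% and mir-66, the last, 9.62%.

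**Figure D3:**
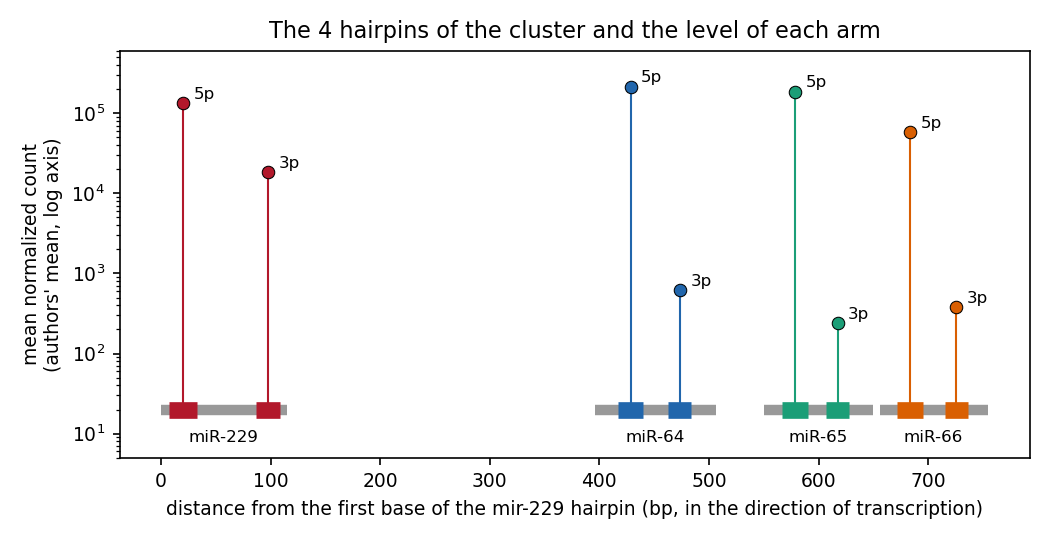
The 4 hairpins of the cluster (grey bars) with their annotated arms (coloured blocks), by distance in bp from the first base of the mir-229 hairpin (horizontal axis), and the mean normalized count of each arm (points, vertical log axis, the authors' mean over all libraries). The 3p arm of miR-229, at 18285, stands far above the 3p arms of miR-64, miR-65 and miR-66, which lie between 239 and 621.

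The annotated hairpins of the family also differed in the distance between their arms, a property that no level entered. In mir-229, 54 nt separate the 5p arm (2172459 to 2172484) from the 3p arm (2172539 to 2172560). This was the longest of the 70 hairpins listed with both arms whose arms could be placed, where the next longest was 24 nt and the median 18 nt. The other members lay within the range of the remaining hairpins, 14 to 24 nt. The distance was 23 nt in mir-64 (tied at rank 6 of 70), 20 nt in mir-66, 18 nt in mir-63 and 17 nt in mir-65. The annotated 5p arm of mir-229 was also the longest of the 70, at 26 nt against 23 nt in each of the other 4 members and a median of 23 nt. Reads of other lengths than the annotated one were not analysed here.

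The 129 placed hairpins were next grouped into genomic clusters, in which neighbours on the same strand are no more than 1000 bp apart. This gave 10 clusters with 28 hairpins in all. The hairpins of let-7, miR-58 and miR-5592 could not be placed by name and entered no cluster, and miR-58-3p alone was at 644614 mean normalized counts. Among these clusters, that of miR-229 to miR-66 had the highest summed level, but it exceeded that of miR-42, miR-43 and miR-44 on chromosome II, at 607211 mean normalized counts, by only 0.338%. miR-44 can share reads with the related miR-45, so the order of these clusters is not settled. With gaps of up to 5000 bp, the pair of miR-80 and miR-238 reached 856453 and the miR-229 to miR-66 cluster came second. In the evenness of its guides, which differed by 3.68-fold from the highest to the lowest, it was eighth of the 10 from the widest range. The widest was 1060-fold for miR-42, miR-43 and miR-44. The highest guide there was that of miR-44, so reads shared with miR-45 also bear on this range.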

How the data were processed

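The authors prepared TruSeq small RNA libraries from Trizol-extracted total RNA of L4 animals, 2 CTRL and 2 HS, described in the study as independent biological replicates. Reads were mapped by the authors to known miRNAs of the worm and compared by the authors in DESeq2. The aligner, the miRNA reference, the rule for reads matching more than one miRNA and all versions are not given in the sources used here. The signal in the deposited table is a mean of size-factor-normalized counts, taken across both groups and all 4 libraries. Its other 2 numeric columns hold the authors' fold changes and adjusted p-values for HS against CTRL and were not used. Counts per library were not analysed here, so depth is unknown and no interval or detection limit is given. The lowest listed level was 51.5, and whether weaker miRNAs were removed before deposit is not known.

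Libraries were grouped by title. Levels were ranked, summed and divided without a pseudocount or filter (Python 3.11.15, pandas 2.3.3, numpy 2.4.6, matplotlib 3.10.9), and the calculations were tested on simulated data. Hairpins were matched by name to the Ensembl release 115 annotation (WBcel235), and 129 of 132 matched. The study names no build for the small RNA reads. The text names every arm of the 5 hairpins and the miRNA directly above and below each guide in the order of levels. Other clusters and their hairpins, and miR-57, were named after their values had been seen. The members, lists and alternatives were chosen with earlier results of these data known. The alternatives varied the total, a filter on low levels, the arms counted, the pseudocount and the gap between clustered hairpins.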

Additional observations from a re-analysis of the deposited data

How the results depend on the processing

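No paired analysis was possible because only means across all libraries were used, and for the same reason no replicate could be left out and no other normalization tried. The alternatives that define the family by bases of the mature sequence were not run, since no sequences were used. Leaving the most abundant miRNA out of the total moved the family's share to 7.07% and the cluster's share to 6.96%. Counting only miRNAs at or above 1000 mean normalized counts gave 6.26% and 6.17%, and counting only the more abundant arm of each hairpin gave 6.13% for the family. Adding 1 to both arms gave a log2 arm ratio of 9.59 for miR-65. Adding 10 gave 9.54 for miR-65, 8.41 for miR-64 and 7.22 for miR-66, and left miR-229 at 2.85 and miR-63 at 2.15. Among the 60 hairpins with both arms at or above 100 mean normalized counts, miR-65 ranked 6, miR-64 11, miR-66 15, miR-229 38 and miR-63 43 by arm ratio. The gap allowed within a genomic cluster was varied after seeing the data. The miR-229 to miR-66 cluster ranked 1 by summed level at 500 bp and 2 at both 5000 bp and 10000 bp. The cause of the last change is that wider gaps join miR-80, miR-238 and, at 10000 bp, miR-90 into 1 cluster. The depth of the libraries is not known, so the precision of the weak 3p arms of miR-64, miR-65 and miR-66 could not be given.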
